A study of Mus musculus with 9 samples.

Results

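Heat shock proteins and their J-domain partners are the chaperones that fold, hold and refold other proteins in the cell. The genes described here are the 74 mouse protein-coding genes whose symbols begin with Dnaja, Dnajb, Dnajc, Hspa, Hspb, Hspd, Hspe, Hsph or Hsp90 in RefSeq (assembly GRCm38.p6). NR4A2 chromatin immunoprecipitation (ChIP-seq) signal was read in every region of the authors' table that touched one of these genes, with its span extended by 10 kb on each side. That gave 135 of 16884 regions, at 67 of the 74 genes. The 7 genes with no region were Dnajb3, Dnajb8, Dnajb12, Dnajc15, Dnajc22, Dnajc28 and Hspa13.

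NR4A2 is an orphan nuclear receptor, a transcription factor that binds DNA with no known natural ligand needed. The study compared ventricle from 3 mice with NR4A2 switched on in cardiomyocytes (Nr4a2-icTg) and from 3 Cre control littermates (αMHC-MerCreMer). The Nr4a2-icTg mice carry an Nr4a2 knock-in at ROSA26 that is turned on by a tamoxifen-dependent Cre under the Myh6 promoter, which is active in cardiomyocytes. The controls carry the same inducible Cre. All mice were 8 to 9 weeks old, received 1 injection of tamoxifen at 40 mg/kg, controls included, and were studied at day 3. For each ChIP, 30 µg of chromatin was mixed with 5.5 µg of NR4A2 antibody (clone 9D12), and 200 ng of fly chromatin and 0.4 µg of a fly histone antibody were added. The tissue was whole ventricle, so a change of signal per cell and a change in the mix of cells cannot be told apart. Each library comes from 1 mouse, per its label. Values are given below in the order mouse 1, 2 and 3, and n = 3 in each group throughout.

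Hsp70 proteins bind exposed hydrophobic stretches of a client protein and release them in a cycle driven by ATP. J-domain proteins (the DnaJA, DnaJB and DnaJC families) bring clients to Hsp70 and start ATP hydrolysis, and Hsp110 proteins act as nucleotide exchange factors that end the cycle. Hsp90 matures kinases and steroid receptors, Hsp60 with Hsp10 folds proteins inside mitochondria, and small heat shock proteins hold unfolded proteins without using ATP. Cardiomyocytes contract without pause and keep several small heat shock proteins at their sarcomeres. Under heat or proteotoxic stress many of these genes are induced by heat shock factor 1 through heat shock elements, and the endoplasmic reticulum chaperones by stress elements of another sequence.

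The start windows of 5 genes are shown because the results below turn on them. Each window runs from 250 bases before to 50 bases after the gene start, from RefSeq (GRCm38), 5′ to 3′ on the gene's strand. In the first, capitals mark the 57 bases that lie inside a region with more NR4A2 signal in NR4A2 mice. In the others, capitals mark matches to an NR4A2 response element, a heat shock element or an endoplasmic reticulum stress element, and a window all in lower case held no match. Hspb7 is at chr4:141420529-141420828 on the plus strand, Hspa4 at chr11:53300430-53300729 and Dnajb4 at chr3:152210034-152210333 on the minus strand, Hspe1 at chr1:55087898-55088197 and Hspa5 at chr2:34771840-34772139 on the plus strand.
Hspb7: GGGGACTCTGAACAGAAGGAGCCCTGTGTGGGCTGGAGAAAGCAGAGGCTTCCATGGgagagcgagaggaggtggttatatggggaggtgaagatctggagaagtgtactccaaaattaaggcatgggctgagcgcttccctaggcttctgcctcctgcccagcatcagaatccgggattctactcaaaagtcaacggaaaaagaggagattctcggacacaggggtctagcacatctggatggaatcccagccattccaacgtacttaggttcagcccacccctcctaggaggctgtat
Hspa4: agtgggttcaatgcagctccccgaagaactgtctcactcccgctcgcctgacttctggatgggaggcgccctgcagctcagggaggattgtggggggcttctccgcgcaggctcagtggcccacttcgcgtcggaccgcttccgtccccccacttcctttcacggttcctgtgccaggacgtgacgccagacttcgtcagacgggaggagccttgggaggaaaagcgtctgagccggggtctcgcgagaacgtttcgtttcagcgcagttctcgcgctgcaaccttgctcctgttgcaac
Dnajb4: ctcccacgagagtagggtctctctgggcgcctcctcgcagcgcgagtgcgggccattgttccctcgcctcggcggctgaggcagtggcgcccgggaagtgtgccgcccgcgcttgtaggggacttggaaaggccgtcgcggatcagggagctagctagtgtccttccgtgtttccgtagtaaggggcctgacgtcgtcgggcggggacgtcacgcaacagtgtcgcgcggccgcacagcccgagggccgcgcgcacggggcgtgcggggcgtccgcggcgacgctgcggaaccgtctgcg
Hspe1: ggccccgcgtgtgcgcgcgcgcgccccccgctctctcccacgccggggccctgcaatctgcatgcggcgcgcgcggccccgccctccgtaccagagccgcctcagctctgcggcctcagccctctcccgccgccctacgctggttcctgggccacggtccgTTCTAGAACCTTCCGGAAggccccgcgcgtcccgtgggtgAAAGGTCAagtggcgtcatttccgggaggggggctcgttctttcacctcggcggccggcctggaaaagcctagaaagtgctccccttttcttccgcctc
Hspa5: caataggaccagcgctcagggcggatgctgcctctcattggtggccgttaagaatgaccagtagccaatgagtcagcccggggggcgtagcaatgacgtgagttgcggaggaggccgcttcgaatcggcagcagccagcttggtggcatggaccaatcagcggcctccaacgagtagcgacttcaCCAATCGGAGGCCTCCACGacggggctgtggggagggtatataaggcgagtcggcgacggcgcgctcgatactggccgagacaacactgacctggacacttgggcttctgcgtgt
Hspb7 encodes a small heat shock protein of heart and muscle, Hspa4 an Hsp110 exchange factor, Dnajb4 a J-domain partner of cytosolic Hsp70, Hspe1 the mitochondrial Hsp10 and Hspa5 the endoplasmic reticulum Hsp70 known as BiP. Windows were listed for 60 of the 74 genes, 77 windows in all, and both strands were searched. The NR4A2 response element searched was the monomer site NBRE, spelled AAAGGTCA, which was in 3 of the 77 windows (3.90%) and in 1.51% of the 32851 windows of all genes. The 3 were those of Dnajb13, Hspd1 and Hspe1. Its core half-site AGGTCA, which every NBRE match also holds, was in 15 windows (19.5%) and in 16.3% of all windows. A heat shock element of 3 units, TTCNNGAANNTTC, was in 6 windows (7.79%) of 4 genes, Dnajb6, Hspd1, Hspe1 and Hsph1, and in 0.603% of all windows. The endoplasmic reticulum stress element (ERSE), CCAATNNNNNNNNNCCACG, was in 3 windows (3.90%), those of Dnajc3, Hsp90b1 and Hspa5, and in 0.119% of all windows. In Hspe1 the NBRE began 49 bases before the start and the heat shock elements, which overlap each other, began 89 and 84 bases before it. The Hspd1 window holds the same elements and NBRE on the other strand, since Hspd1 and Hspe1 are transcribed away from each other. The Dnajb6 windows overlap and hold the same element, as do the Hsph1 windows. Windows that share bases were counted separately, so these shares count windows and not separate sites.

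The 6 libraries had 549700 to 1035856 reads in regions, so 1 read was worth 0.955 to 1.81 CPM (reads in a region scaled to library size) and 3 reads 2.86 to 5.43 CPM. Control mouse 3 was the shallowest. At Nr4a2, the gene that the knock-in carries, 2 of 4 regions were higher in NR4A2 mice. One had 6.15, 7.79 and 25.3 CPM in controls and 115, 82.0 and 74.4 CPM in NR4A2 mice, a log2 fold change of 2.92 ± 0.37 (SE, limma adjusted p = 8.90e-09), and the other differed by 1.46 (adjusted p = 0.0340). The remaining Nr4a2 regions, at -0.09 (adjusted p = 0.837) and -1.12 (adjusted p = 0.0736), were not called. Reads of the knock-in and of the gene's own copy were not told apart. At ROSA26, the site of the knock-in, 2 of 3 regions were higher, from 111, 127 and 147 to 319, 303 and 252 CPM (adjusted p = 1.01e-07) and from 7.17, 7.79 and 7.24 to 41.1, 17.3 and 16.4 CPM (adjusted p = 0.0382). The third was not called (0.28, adjusted p = 0.226). Over regions, log2 signal correlated at 0.877 to 0.913 among control mice, at 0.824 to 0.857 among NR4A2 mice and at 0.645 to 0.760 between groups, as a description. Of 24 cell type markers 15 had a region, namely all 5 cardiomyocyte and all 5 endothelial genes, 2 of 5 fibroblast, 1 of 5 immune and 2 of 4 smooth muscle and pericyte genes, although ChIP signal at a gene is not its expression. Because the CPM were scaled to the reads of each library inside regions, a shift common to the whole table would not show.

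NR4A2 ChIP signal was counted at the chaperone genes in both groups, and few of their regions were called. The inputs were not analysed here, so how much of this signal is NR4A2 binding was not tested. With limma on log2(CPM + 1) and Benjamini-Hochberg adjustment over all 16884 regions, 9 of 135 regions were higher in NR4A2 mice (6.67%), beside 14.7% of all regions. Another 4 were lower (2.96%), beside 3.17% of all regions, and 122 were not called. By gene, 5 of 67 had a region that was higher (7.46%, beside 14.2% of the 11151 genes with a region) and 4 a region that was lower (5.97%, beside 6.24%). These 135 regions had a median log2 fold change of -0.06, as did the whole table. The share of each library's signal that lay in the 135 regions was 1.06 to 1.20%. Groups did not overlap in 13 regions with NR4A2 mice above controls (9.63%, beside 19.9% of all regions) and in 13 with NR4A2 mice below (9.63%, beside 11.7%).

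These counts depend on single mice. NR4A2 mouse 3 had the highest of the 6 values in 8 of the 9 higher regions, and without it, or without control mouse 3, 4 regions were higher. By gene, 3 genes then had a higher region, and without control mouse 2 it was 8. The lower regions fell from 4 to 1 without control mouse 1, and to 2 without control mouse 2, NR4A2 mouse 1 or NR4A2 mouse 3. With no depth scaling limma called 1 region higher and 0 lower. With scaling, 15 were higher (11.1%) and 9 lower (6.67%) at an unadjusted p under 0.05, beside 19.1% and 9.64% of all regions. edgeR called 9 higher and 4 lower, beside 15.2% and 3.43% of all regions, and DESeq2 called 6 higher and 2 lower, beside 12.9% and 1.49%. Of the 135 regions, the authors' deposited table calls 8 up (5.93%, beside 14.9% of all regions) and 1 down (0.741%, beside 1.95%). The authors' label is not set by FDR alone, so these counts are not at the same threshold. It leaves as unchanged an Hspb7 region (FDR 0.0337, log2 fold change 0.511) and an Hspa9 region (FDR 0.0223, -0.602). Also left as unchanged were the called Dnajb4 start region (FDR 0.0602) and the called Hspb1 region (FDR 0.0545). The deposited FDR of both is above 0.05.

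**Figure D1:**
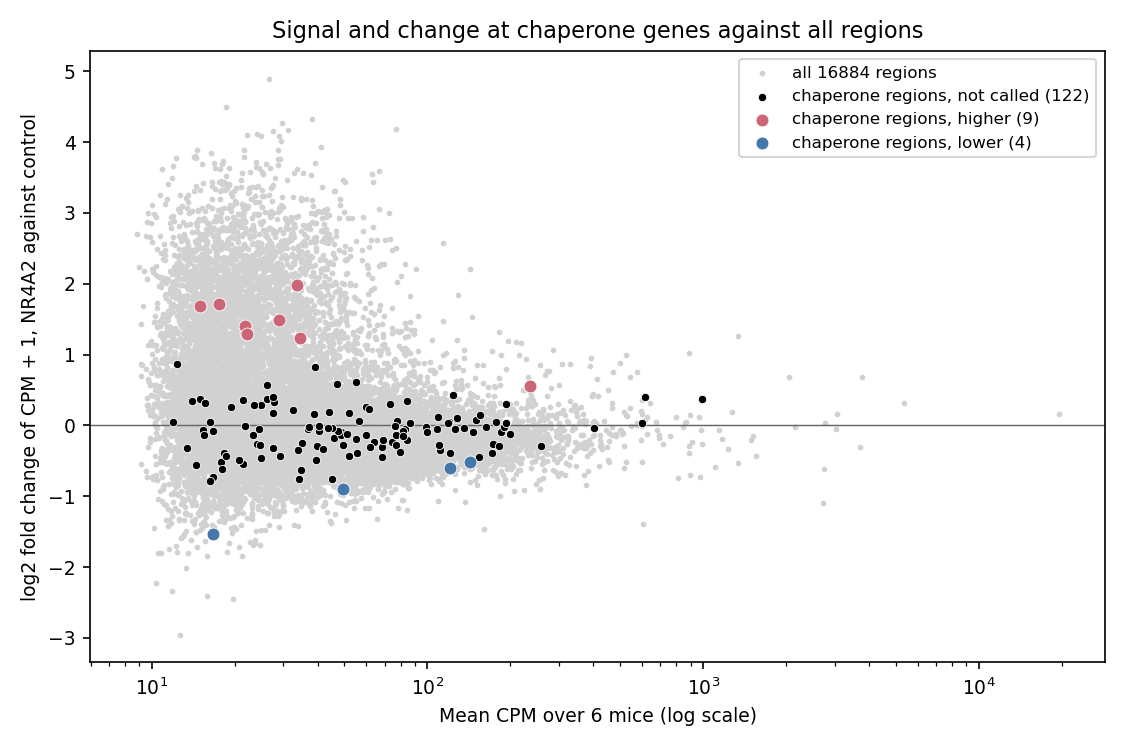
Each point is 1 region, with its mean CPM over 6 mice (log axis) against the log2 fold change of CPM + 1, NR4A2 against control. Of the 135 chaperone regions, 9 were higher and 4 lower, and 8 of the 9 higher regions had a mean under the median of all regions.

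The median length of the regions at chaperone genes was 522 bp, beside 438 bp for all regions, and their median signal was 48.6 CPM, beside 37.4. They were chosen by nearness to a gene, so their distance from genes is no result. Of the 60 genes with a listed start, 46 had a region touching their own start window, and these 48 regions had a median signal of 77.4 CPM, against 40.6 CPM for the other 87. Among these 48 regions at start windows, 1 was higher (Hspb7) and 1 lower (Dnajb4), and their median log2 fold change was -0.05. Among all 70 chaperone regions that touched a listed start window of any gene, 1 was higher (1.43%), beside 1.21% of such regions in the table, and 2 were lower (2.86%), beside 4.30%. Of the 65 that touched none, 8 were higher (12.3%), beside 22.3%, and 2 lower (3.08%), beside 2.53%. The 101 regions within 1 kb of a gene end held 2 higher (1.98%), beside 2.31%, and all 4 lower ones (3.96%), beside 4.02%. The 34 farther away held 7 higher (20.6%), beside 26.1%, and none of the lower ones, beside 2.39%. Of the 83 regions at or above the median signal of all regions, 1 was higher (1.20%), beside 6.61%, and 3 lower (3.61%), beside 5.25%. Of the 52 under it 8 were higher (15.4%), beside 22.7%, and 1 lower (1.92%), beside 1.10%. The chaperone regions that rose were thus mostly weak ones away from gene starts, as were the rising regions of the whole table.

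**Figure D2:**
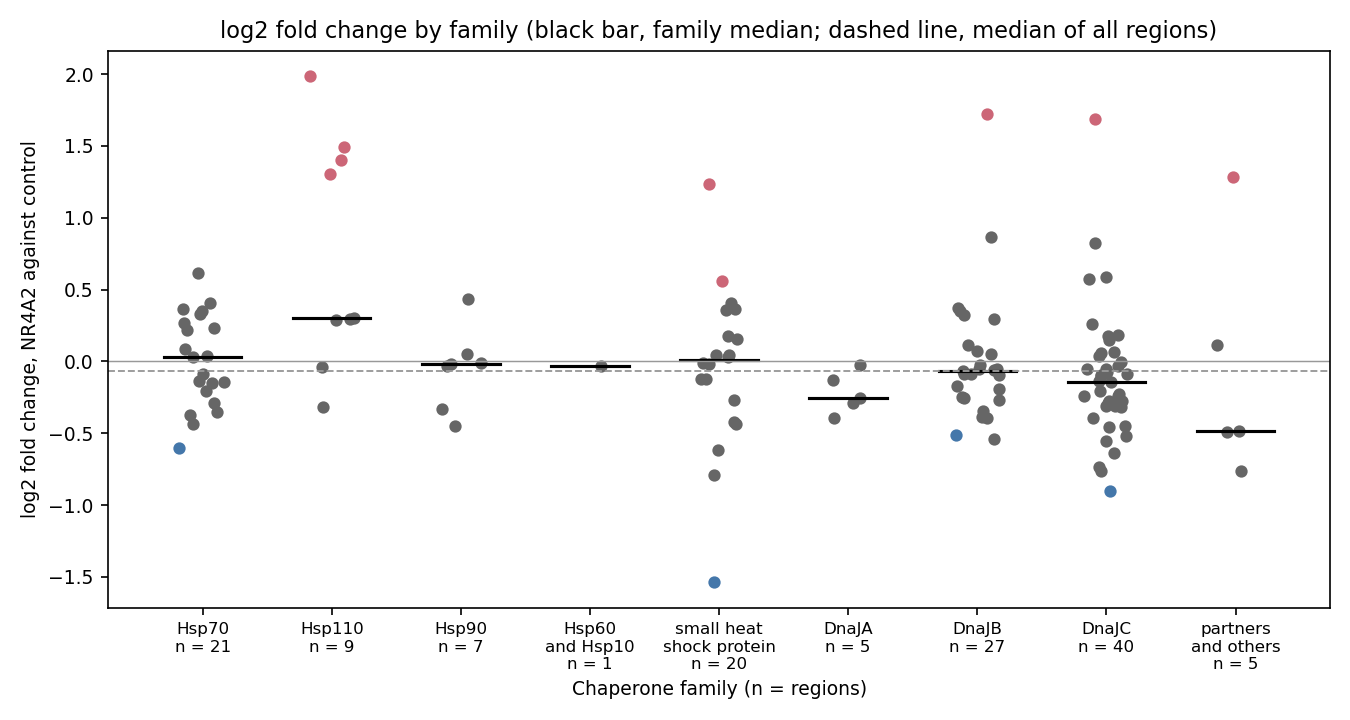
The log2 fold change of each region (1 point per region, red higher, blue lower, grey not called) is plotted by chaperone family, with the family median as a black bar and the median of all regions as a dashed line. The 4 higher Hsp110 regions, all at Hspa4, sit between 1.30 and 1.99, and the DnaJA median is -0.26.

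Hspa4 held the largest group of changed regions. It encodes an Hsp110 protein that reloads Hsp70 with ATP, and 4 of its 6 regions were higher. All 4 lay inside the gene, 5.53 to 26.9 kb beyond its start (measured from the middle of a region). Exons and introns are not told apart in the annotation used. Summed over these 4 regions the signal was 57.4, 59.4 and 36.2 CPM in controls and 121, 129 and 236 CPM in NR4A2 mice. The 4 were picked for being higher in these same mice, so the sum is a description and adds no support.

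The region 8.68 kb from the start, chr11:53291560-53292043, had 12.3, 14.6 and 10.9 CPM in controls and 46.8, 39.4 and 78.2 CPM in NR4A2 mice. Every NR4A2 mouse was above every control, and mouse 3 was highest. The means were 12.6 ± 1.89 and 54.8 ± 20.6 CPM (SD), with a log2 fold change of 1.99 ± 0.39 (SE, limma adjusted p = 4.55e-05). Of the 13 called chaperone regions it alone kept its call under every alternative it was tested in, with adjusted p up to 0.0107 (without NR4A2 mouse 3). Its mean lies under the median signal, so the alternative limited to stronger regions leaves it out.

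The region at 20.3 kb, chr11:53279914-53280407, had 19.5, 12.7 and 10.9 CPM in controls and 25.8, 41.0 and 64.3 CPM in NR4A2 mice. Its groups did not overlap, and the log2 fold change was 1.49 ± 0.40 (adjusted p = 0.00415). The region at 5.53 kb, chr11:53294772-53295118, had 16.4, 11.7 and 7.24 CPM against 25.8, 28.4 and 41.6 CPM, again with no overlap. Its log2 fold change was 1.40 ± 0.45 (adjusted p = 0.0173). The region at 26.9 kb, chr11:53273290-53273769, had 9.22, 20.4 and 7.24 CPM against 22.9, 20.5 and 51.7 CPM, where the highest control and the lowest NR4A2 mouse nearly met. Its log2 fold change was 1.30 ± 0.46 (adjusted p = 0.0372). None of these 3 calls held without NR4A2 mouse 3 (adjusted p = 0.103, 0.127 and 0.315) or without depth scaling. The second also ended without control mouse 3 (0.0754). The third also ended without control mouse 1 (0.0989), control mouse 3 (0.132) or NR4A2 mouse 1 (0.0549), and with DESeq2 (0.0945).

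The start region of Hspa4, which covers the window printed above, was much stronger and was not called. It had 196, 165.5 and 157.5 CPM in controls and 200, 202 and 240 CPM in NR4A2 mice. The groups did not overlap, and the log2 fold change was 0.31 ± 0.17 (95% interval -0.04 to 0.65, adjusted p = 0.235). A region upstream, at -8.22 kb, differed by -0.04 (adjusted p = 0.955). The other Hsp110 genes, Hspa4l and Hsph1, had 3 regions between them and none was called, as in edgeR and DESeq2. The Hsph1 start region, whose window holds a heat shock element, had 19.5 to 23.4 CPM in controls and 20.2 to 31.5 CPM in NR4A2 mice (0.29, adjusted p = 0.688).

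**Figure D3:**
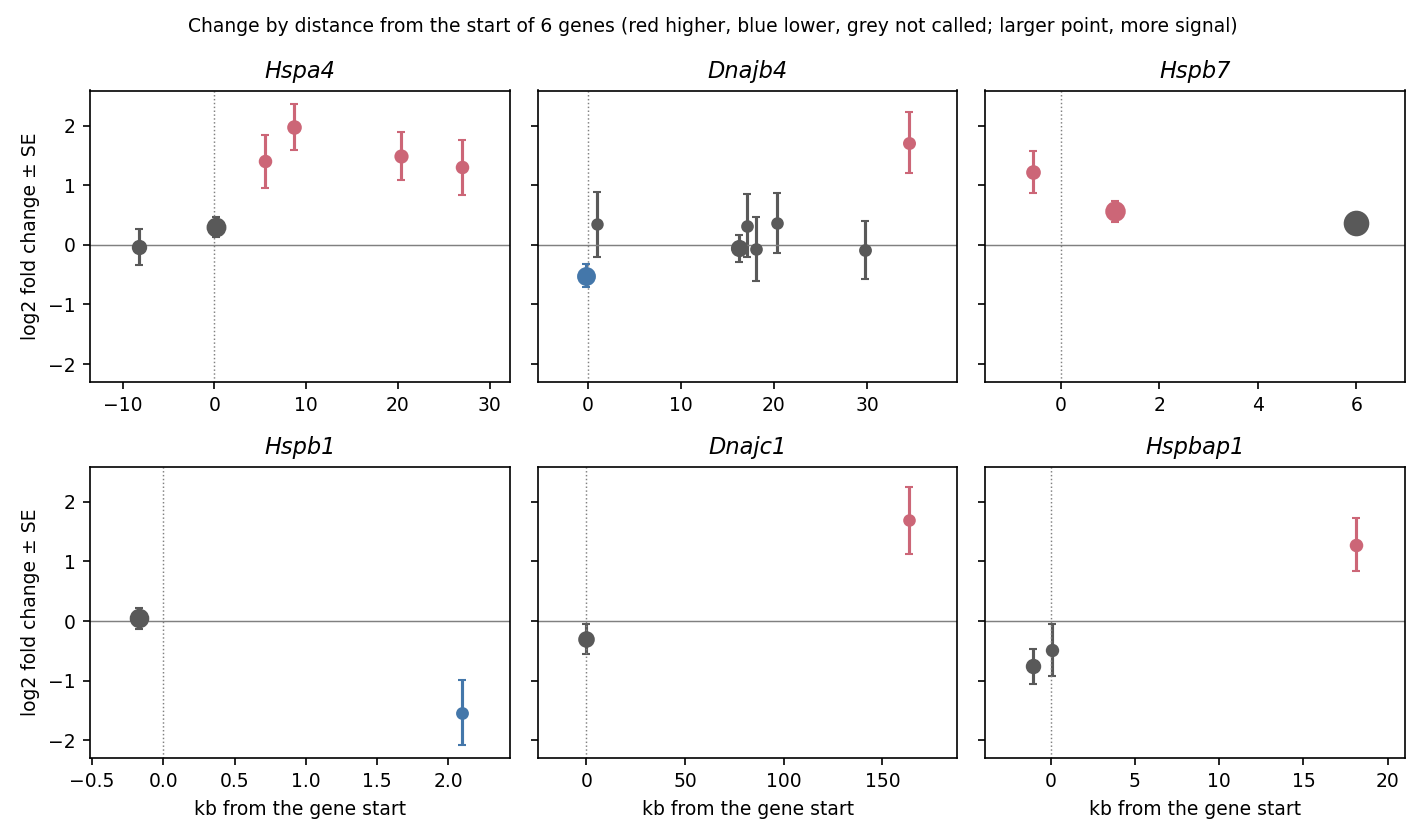
Log2 fold change ± SE of every region at 6 genes with a called region is plotted against the distance in kb of the region's middle from the gene start. At Hspa4 the regions at 5.53 to 26.9 kb are higher while the larger point at the start, which stands for more signal, differs by 0.31.

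Among the small heat shock proteins, 2 regions of Hspb7 were higher and 1 region of Hspb1 was lower, out of 20 regions at 7 genes. The Hspb7 protein is needed for normal sarcomeres. The region just before the Hspb7 start, chr4:141419870-141420585, had 17.4, 17.5 and 25.3 CPM in controls and 38.2, 47.3 and 60.5 CPM in NR4A2 mice. All NR4A2 mice were above all controls. The means were 20.1 ± 4.55 and 48.7 ± 11.2 CPM, with a log2 fold change of 1.23 ± 0.35 (adjusted p = 0.00706), and without NR4A2 mouse 3 the adjusted p was 0.0822. Of the 48 regions touching their own gene's start window, it was the one called higher. It overlaps only 57 bases of that window and ends before the start itself.

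The next region, chr4:141420840-141422940, lies over the first part of Hspb7 and had 204, 239 and 132 CPM in controls and 306, 298 and 230 CPM in NR4A2 mice. NR4A2 mouse 3 fell below control mouse 2, so the groups overlapped. The log2 fold change was 0.56 ± 0.18 (adjusted p = 0.0156), and the call ended without control mouse 3 (0.214), without NR4A2 mouse 1 (0.116), with DESeq2 (0.0966) and among regions of at least median signal (0.0559).

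The strongest of all 135 regions, 7280 bp long, follows it in the same gene. It had 953, 826 and 777 CPM in controls and 1233, 1420 and 749 CPM in NR4A2 mice, with 2 NR4A2 mice above and mouse 3 below every control. The log2 fold change of 0.37 ± 0.16 was not called (adjusted p = 0.118), and without NR4A2 mouse 3 it was 0.64 (adjusted p = 0.00738). In order along the gene, and of rising signal, the 3 log2 fold changes were thus 1.23, 0.56 and 0.37. The last 2 lie close together for their SEs, and without NR4A2 mouse 3 they were 0.69 and 0.64.

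Hspb1 encodes Hsp27, a small heat shock protein that protects the cytoskeleton under stress. A weak region 314 bp past the gene, chr5:135889877-135890152, had 26.6, 25.3 and 19.9 CPM in controls and 9.55, 15.8 and 2.52 CPM in NR4A2 mice. The groups did not overlap, but the value of NR4A2 mouse 3 rests on 2 reads. The log2 fold change was -1.54 ± 0.54 (adjusted p = 0.0339). Without NR4A2 mouse 3 it was -0.90 (adjusted p = 0.238), and the call also ended without control mouse 1 (0.138) or control mouse 2 (0.126) and with DESeq2 (0.0892). The Hspb1 start region had 213, 168 and 143 CPM in controls and 177, 211 and 151 CPM in NR4A2 mice, with a log2 fold change of 0.05 (adjusted p = 0.898).

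The start regions of Hspb6 and Hspb8, both abundant in muscle, had log2 fold changes of 0.03 (95% interval -0.32 to 0.39) and -0.01 (-0.46 to 0.45). The region shared by Hspb2 and Cryab, the neighbouring αB-crystallin gene, had 240, 202 and 181 CPM in controls and 190, 206 and 174 CPM in NR4A2 mice (-0.12, adjusted p = 0.696). None of the regions of Hspb2, Hspb3, Hspb6, Hspb8 and Hspb9 was called by limma, edgeR or DESeq2.

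**Figure D4:**
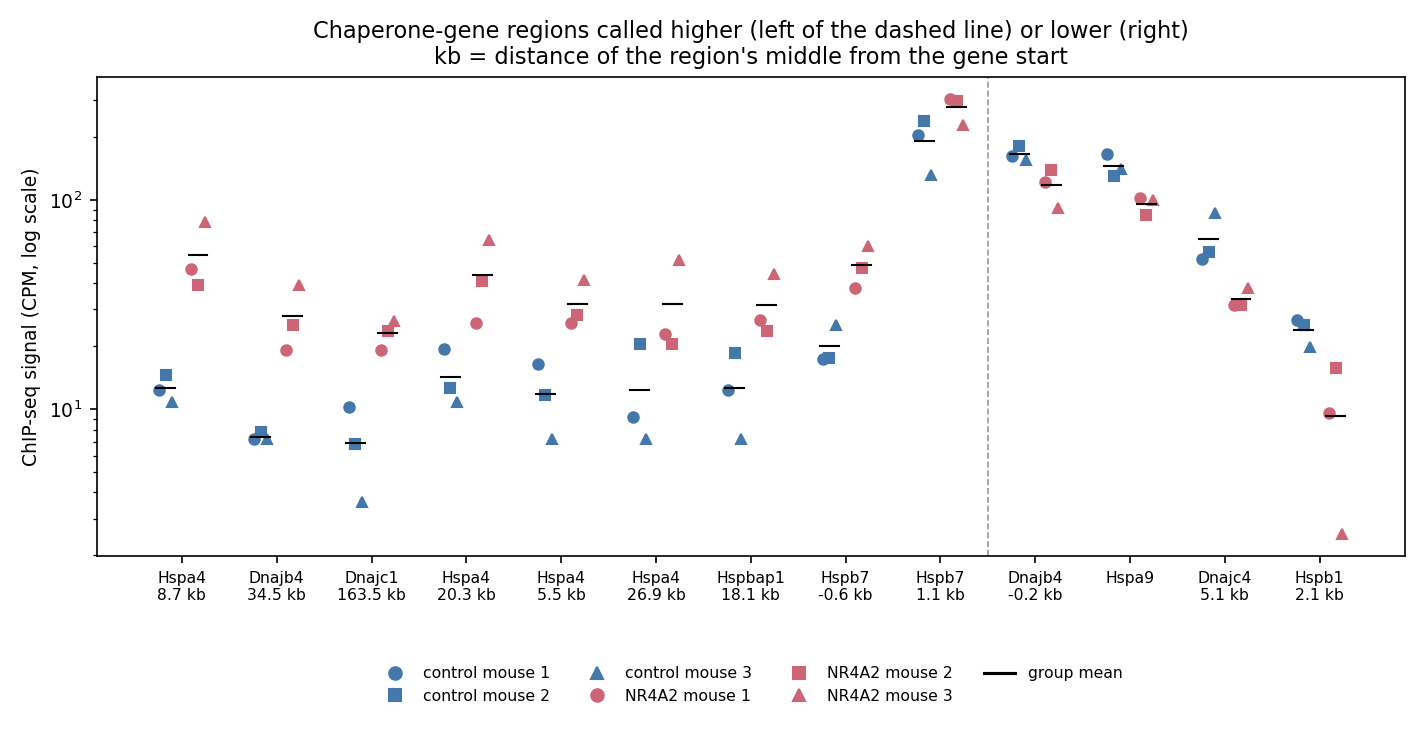
CPM in each of the 6 mice (log axis) is shown for the 13 called regions, with the group mean as a bar, 9 higher regions left of the dashed line and 4 lower regions right of it. Groups overlap in the second Hspb7 region, and NR4A2 mouse 3 is the highest of the 6 mice in the other 8 higher regions.

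The Hsp70 family had 21 regions at 10 of its 11 genes, with 0 higher and 1 lower, and a median log2 fold change of 0.03. Of the 21, limma gave 2 higher at an unadjusted p under 0.05, and edgeR and DESeq2 called 0 higher. The lower region belonged to Hspa9, mitochondrial Hsp70, also called mortalin. At chr18:34954669-34955454, 318 bp outside the gene span, it had 166, 130 and 141 CPM in controls and 102, 85.1 and 99.6 CPM in NR4A2 mice. Every NR4A2 mouse was below every control, and the log2 fold change was -0.60 ± 0.20 (adjusted p = 0.0201). The call ended without control mouse 1 (0.130) or NR4A2 mouse 2 (0.0883). The other 2 Hspa9 regions had log2 fold changes of -0.44 (adjusted p = 0.307) and -0.15 (adjusted p = 0.715).

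Hspa8, the constitutive cytosolic Hsp70, held 2 of the strongest regions. The first spans chr9:40799599-40802901 and had 619, 632 and 519.5 CPM in controls and 715, 608 and 498 CPM in NR4A2 mice (log2 fold change 0.03, 95% interval -0.26 to 0.33). The second, chr9:40803538-40808856, had 541, 656 and 395 CPM against 742, 791 and 556 CPM. Its groups overlapped, and its log2 fold change of 0.41 ± 0.16 missed the threshold (adjusted p = 0.0611). It passed without control mouse 2 (0.0127), without NR4A2 mouse 3 (0.0366) and with a pseudocount of 5 (0.0438).

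The stress-inducible pair Hspa1a and Hspa1b are near-identical copies, so reads within them may be shared, and their values are uncertain. The Hspa1a start region had 44.1, 54.5 and 32.6 CPM in controls and 68.7, 66.2 and 63.1 CPM in NR4A2 mice. The groups did not overlap, but the log2 fold change of 0.61 ± 0.27 was not called (adjusted p = 0.114). The Hspa1b start region was stronger and differed by 0.09 (adjusted p = 0.806). Hspa12b, a distant Hsp70 relative of endothelial cells, had 7 regions, all uncalled, with log2 fold changes from -0.37 to 0.35.

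Hsp90 genes had 7 regions and none was called by limma, edgeR or DESeq2, with 1 higher and 1 lower at an unadjusted p under 0.05. The strongest lay at Hsp90ab1, the constitutive cytosolic Hsp90, with 383, 417 and 418 CPM in controls and 405, 443 and 349 CPM in NR4A2 mice. The mice of both groups were mixed, and the log2 fold change was -0.03 ± 0.15 (95% interval -0.33 to 0.27). Hsp90aa1, the stress-inducible form, had 169, 172 and 190 CPM in controls and 153, 106 and 134 CPM in NR4A2 mice. Its groups did not overlap, and the log2 fold change of -0.45 ± 0.18 missed the threshold (adjusted p = 0.0775).

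The mitochondrial chaperonin genes Hspd1 (Hsp60) and Hspe1 (Hsp10) share 1 region, chr1:55087581-55088595, over the start printed above with its NBRE and heat shock elements. It had 146.5, 116 and 145 CPM in controls and 152, 164 and 92.1 CPM in NR4A2 mice. NR4A2 mice held both the highest and the lowest value, and the log2 fold change was -0.03 ± 0.20 (95% interval -0.42 to 0.36, adjusted p = 0.935). The third start window with an NBRE, that of Dnajb13, was touched by none of the gene's 3 regions, of which the strongest differed by -0.09 (adjusted p = 0.806).

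The 3 genes with an ERSE all encode endoplasmic reticulum proteins, and their start regions were not called. Hspa5 had 244, 188 and 168 CPM in controls and 182, 131 and 175 CPM in NR4A2 mice, with overlapping groups (log2 fold change -0.29 ± 0.18, 95% interval -0.65 to 0.06). Hsp90b1, which encodes the endoplasmic reticulum Hsp90 known as GRP94, differed by -0.02 (95% interval -0.36 to 0.32). Dnajc3, whose product binds Hsp70 and inhibits the stress kinase PERK, differed by -0.10 (adjusted p = 0.804). The endoplasmic reticulum members listed were Hspa5, Hsp90b1, Hspa13, Dnajb9, Dnajb11, Dnajc1, Dnajc3 and Dnajc10. Over their 11 regions 1 was higher, at Dnajc1 (beside 14.7% of all regions), and the median log2 fold change was -0.10. The mitochondrial members listed were Hspa9, Hspd1, Hspe1, Dnaja3, Dnajc11, Dnajc15, Dnajc19 and Dnajc30. Over their 9 regions 1 was lower, at Hspa9 (beside 3.17%), and the median was -0.23. Both lists were set by hand and may leave out members.

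**Figure D5:**
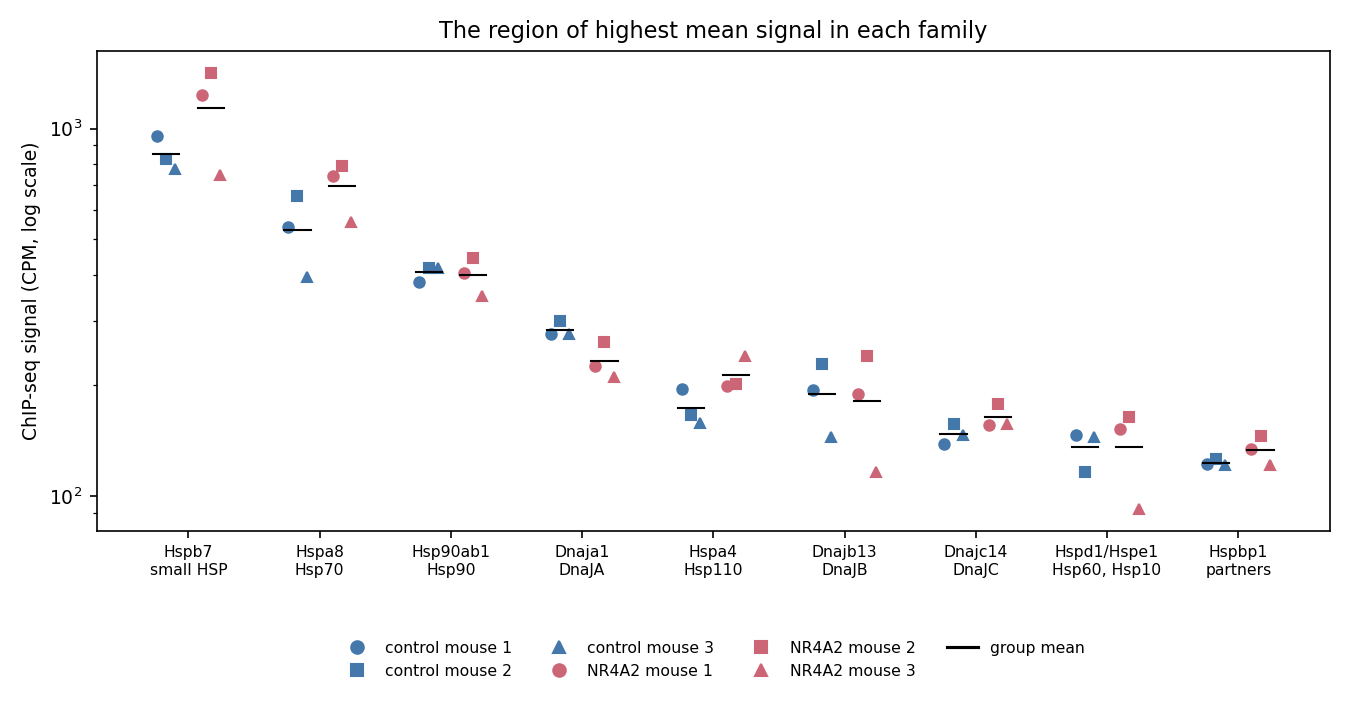
CPM in each mouse (log axis) is plotted for the region of highest mean signal in each of 9 families, with the group mean as a bar. None of the 9 was called, and the Hspa8 region at 0.41 and the Hspb7 region at 0.37 had the largest log2 fold changes.

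J-domain proteins made up most of the genes. The DnaJA genes, the general Hsp70 partners, had 5 regions, none called by limma, edgeR or DESeq2, and 1 lower at an unadjusted p under 0.05. All 5 had a log2 fold change below 0, with a median of -0.26. Dnaja1 had 276, 299.8 and 275 CPM in controls and 225, 262 and 211 CPM in NR4A2 mice, and Dnaja2 had 212, 184 and 188 CPM against 152, 143 and 149 CPM. In both genes every NR4A2 mouse was below every control, with log2 fold changes of -0.29 (adjusted p = 0.228) and -0.39 (adjusted p = 0.118).

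The DnaJB family had 27 regions at 10 of its 13 genes, and both called regions, 1 higher and 1 lower, were at Dnajb4. The lower one covers its upstream start at chr3:152209908-152210623, with 162, 182 and 156 CPM in controls and 122, 139 and 92.1 CPM in NR4A2 mice. The groups did not overlap, and the log2 fold change was -0.51 ± 0.19 (adjusted p = 0.0441). The call ended without control mouse 1 (0.0834), control mouse 2 (0.176), NR4A2 mouse 1 (0.0769) or NR4A2 mouse 3 (0.280), with DESeq2 (0.0918) and among regions of at least median signal (0.0828). This region also lies at the start of Fubp1.

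The higher one, chr3:152175448-152175671, lies 5909 bp past the other end of Dnajb4, near Gipc2. It had 7.17, 7.79 and 7.24 CPM in controls and 19.1, 25.2 and 39.1 CPM in NR4A2 mice, which is 4 to 8 reads against 16 to 31 reads. All NR4A2 mice were above all controls, with a log2 fold change of 1.72 ± 0.51 (adjusted p = 0.00969). Without NR4A2 mouse 3 the adjusted p was 0.102. The 6 regions between these had log2 fold changes of -0.08 to 0.37 and were not called. Among them, the region over another listed start of Dnajb4 differed by -0.06 (adjusted p = 0.902). Dnajb1, the stress-inducible Hsp40, differed by -0.02 (95% interval -0.38 to 0.33). Dnajb6 keeps client proteins from aggregating and has the same heat shock element in both of its overlapping windows. It had 142, 132 and 134 CPM in controls and 108, 85.1 and 120 CPM in NR4A2 mice. Its groups did not overlap, and its log2 fold change was -0.40 (adjusted p = 0.164).

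The DnaJC family had 40 regions at 25 of its 28 genes, with 1 higher, 1 lower and a median log2 fold change of -0.14. Dnajc1 encodes a J-domain protein of the endoplasmic reticulum membrane. Its higher region, chr2:18229231-18229508, lies inside this long gene 163 kb from the start, with 10.2, 6.81 and 3.62 CPM in controls and 19.1, 23.6 and 26.5 CPM in NR4A2 mice. The groups did not overlap, at 2 to 10 reads against 15 to 21 reads, and differed by 1.69 ± 0.56 on the log2 scale (adjusted p = 0.0221). The call ended without control mouse 3 (0.0770), NR4A2 mouse 2 (0.0828) or NR4A2 mouse 3 (0.0976). The Dnajc1 start region differed by -0.31 (adjusted p = 0.450).

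The lower region, chr19:6987288-6987767, lies 144 bp outside Dnajc4 and touches Vegfb, and 5 other genes besides Vegfb lie within 10 kb of it. It had 52.3, 56.5 and 86.9 CPM in controls and 31.5, 31.5 and 37.8 CPM in NR4A2 mice, without overlap. This is a log2 fold change of -0.90 ± 0.29 (adjusted p = 0.0186), and the call ended without control mouse 3 (0.167) or NR4A2 mouse 1 (0.0596). The Dnajc4 start region differed by -0.14 (adjusted p = 0.799). Dnajc8 came nearest to a call among the rest, with 33.8, 39.9 and 14.5 CPM in controls and 48.7, 55.2 and 42.9 CPM in NR4A2 mice at its start (log2 fold change 0.82, adjusted p = 0.0763).

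Of the partners, Hspbap1, whose product binds a small heat shock protein, had 1 higher region of 3. At chr16:35788383-35788673, 18.1 kb into the gene, it had 12.3, 18.5 and 7.24 CPM in controls and 26.7, 23.6 and 44.1 CPM in NR4A2 mice. The groups did not overlap, and the log2 fold change was 1.28 ± 0.45 (adjusted p = 0.0323). The call ended without control mouse 1 (0.0558), control mouse 3 (0.142), NR4A2 mouse 1 (0.0644) or NR4A2 mouse 3 (0.210), and with DESeq2 (0.0811). A region before its start, at -1.02 kb, leaned the other way, with 50.2, 52.6 and 68.8 CPM against 33.4, 31.5 and 34.1 CPM, and missed the threshold (-0.76 ± 0.30, adjusted p = 0.0626). Hspbp1, an Hsp70 nucleotide exchange factor, had 1 region, at 122, 126 and 121 CPM against 134, 145 and 121 CPM (0.11, adjusted p = 0.750).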

How the data were processed

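NR4A2 ChIP-seq signal came from 1 table of 16884 regions (192 to 34918 bp), with a column for each of 6 mice. Of the series' 9 samples, 3 (an antibody test ChIP, its input and a pooled input) were not analysed here. BWA and build GRCm38 (mm10) are named in the submitters' processing notes, and the sources used here do not give the peak caller, counter, filter or use of the fly spike-in. The deposited values per mouse are CPM, and all were whole multiples of 1 read (tolerance 0.001 of a read), relative to reads in regions. Per the file headers, further columns give the authors' own comparison: p-value, FDR, log2 fold change and mean log2 signal. No column was left unmatched.

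The test was limma 3.58.1 (R 4.3.3), with trend and robust moderation, on log2(CPM + 1) with a single term for genotype, fitted to all regions with none filtered out. Benjamini-Hochberg adjusted p-values were taken over all regions, with a threshold of 0.05, and an adjusted p with no tool beside it comes from limma. Fold changes are on the log2(CPM + 1) scale, which understates changes of weak regions. Intervals are limma's 95% intervals. Alternatives were a pseudocount of 0.5 or 5, regions of at least median mean CPM, median-of-ratios scaling, recovered reads without depth scaling, edgeR 4.0.16 (quasi-likelihood) and DESeq2 1.42.0 on recovered reads, a replicate block, each mouse left out, and windows of 0, 1 or 50 kb. The scripts were tested on simulated data. There limma recovered 38 of 100 regions with a log2 change of 1 in either direction and 83 of 100 with a change of 2. False calls numbered 6. A region that was not called is therefore not shown to be unchanged. The simulation changed 200 of 16884 regions, while 2475 were called higher and 536 lower in the data. Its recovery rates may thus not carry over to these data.

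A region was assigned to every protein-coding gene of RefSeq (GRCm38.p6) whose span extended by 10 kb it touched. Start windows were matched by symbol, and a region touching a window by 1 base counts as at that start. Gene lists were matched by symbol. The annotation gives neither exons nor introns. Member genes and lists were chosen with earlier results of these data known. Named with values were each gene's called regions and each family's strongest region, or the one of lowest p in families with none called. Values in every mouse for called regions under the median signal, and the other uncalled regions named, were added after values were seen. Replicates are mice per the labels' titles. With 3 per group, limma's p-values and SEs do not rest on the spread between a region's own mice alone. Moderation draws each region's variance toward a trend over all regions of similar signal.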

Additional observations from a re-analysis of the deposited data

How the results depend on the processing

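No called region reversed direction, while uncalled differences near 0 changed sign: without NR4A2 mouse 3 those at Dnajb13, Hspd1 and Hsp90ab1 were 0.20, 0.22 and 0.06. Of the 13 called regions 1, at Hspa4, kept its call wherever it was tested. Among regions of at least median signal 481 of all regions were higher and 235 lower (67.2% of calls higher, against 82.2% with all regions), with 0 chaperone regions at 0 genes higher and 2 at 2 genes lower. Without depth scaling 1398 were higher and 14 lower (99.0%), with 1 chaperone region at 1 gene higher and 0 at 0 genes lower. DESeq2 gave 251 lower regions, with 2 chaperone regions at 2 genes. With a window of 0 kb 1 chaperone region at 1 gene was lower. With 50 kb 21 regions at 12 genes were higher and 7 at 7 genes lower. Fewer regions are tested under the signal filter, and the cause of the other shifts was not tested.

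Leaving out each mouse in turn gave 1577 to 2332 higher and 270 to 454 lower regions in the table, with the fewest of both without NR4A2 mouse 3. For the chaperones it gave 4 to 12 higher regions at 3 to 8 genes and 1 to 3 lower regions at 1 to 3 genes. The most higher regions came without control mouse 2.

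With the replicate block 11 chaperone regions at 6 genes were higher and 4 at 4 genes lower, and all 13 called regions were among them. The second Hspa8 region (adjusted p = 0.0251) and the strongest Hspb7 region (0.0313) passed. Same-numbered mice deviated from their group means with correlations of -0.0658, 0.0609 and 0.0326, and not every mouse correlated best with its own number. Mice of different numbers had correlations from -0.102 to 0.0703. With so few mice per group, these values cannot decide whether the numbers pair the mice. edgeR called the same 13 regions. At 1 read worth up to 1.81 CPM, the weakest called regions rest on few reads.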

Other observations

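Other parts of the chaperone network, outside the symbols chosen, gave a similar picture. Of 56 genes listed by role, 54 matched a gene, and 47 of them had a region. Of their 88 regions 3 were higher (beside 14.7% of all regions). Lower regions numbered 0, 0 and 1 in limma, DESeq2 and edgeR, beside 3.17%, 1.49% and 3.43% of all regions. At an unadjusted limma p under 0.05, 2 were lower, beside 9.64%. The median log2 fold change was -0.09. All 3 higher regions were at Hsp70 co-chaperones. None was called at the 4 regions of heat shock factors, the 21 of Hsp90 co-chaperones, the 12 of the cytosolic chaperonin TRiC, the 19 of endoplasmic reticulum folding factors or the 7 of mitochondrial chaperones and proteases, by limma or DESeq2, and edgeR called 1 TRiC region lower.

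Bag3 is an Hsp70 co-chaperone that works with Hspb8 in clearing damaged proteins of the sarcomere, and 2 of its 7 regions were higher. Inside the gene, chr7:128543643-128544237 had 33.8, 26.3 and 25.3 CPM in controls and 62.1, 52.0 and 63.1 CPM in NR4A2 mice, without overlap (log2 fold change 1.03 ± 0.31, adjusted p = 0.00958). Next to it, chr7:128544727-128545120 had 9.22, 13.6 and 9.05 CPM against 22.0, 25.2 and 45.4 CPM, also without overlap (1.41 ± 0.46, adjusted p = 0.0209). The strongest Bag3 region, at an end of the gene, had 174, 190 and 226 CPM against 135, 177 and 233 CPM (-0.14, adjusted p = 0.651). The Stub1 region, chr17:25836665-25837740, lies 3746 bp outside this gene for the ubiquitin ligase CHIP and also near Jmjd8, Rhbdl1, Rhot2, Wdr24 and Wdr90. It had 55.3, 72.0 and 88.7 CPM against 113, 109 and 115 CPM, without overlap (0.66 ± 0.22, adjusted p = 0.0223).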
